A study of Mus musculus with 6 samples.

Results

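Accessible chromatin at the genes of the ribosomal proteins was examined in mouse definitive endoderm, the germ layer that gives rise to the gut and its organs, with and without the homeodomain transcription factor OTX2. A peak, a stretch of open chromatin found by ATAC-seq, was counted as belonging to a ribosomal protein gene where the authors' deposited table named a gene beginning Rpl or Rps followed by a digit, or Rpsa, Rplp0, Rplp1 or Rplp2, without pseudogenes and without the S6 kinases. This rule took in 165 of 70494 peaks, at 83 of 26796 named genes. Of these peaks, 143 lay at 73 of the 77 genes on a list of cytosolic ribosomal proteins, 43 of 46 genes of the large subunit and 30 of 31 genes of the small subunit. The other 22 peaks lay at 10 genes that share the naming, namely the like-named genes Rpl6l, Rpl7l1, Rpl10l, Rpl22l1, Rpl37rt, Rps3a2, Rps4l, Rps12l1 and Rps27l, and Rps19bp1, which encodes a binding partner of a ribosomal protein rather than a ribosomal protein.

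All cells came from 1 line, labelled 7H OTX2-dTAG-EGFP, epiblast stem cells of a BL6/129 hybrid background in which OTX2 carries a degradation tag and a green fluorescent protein, so the controls carried the tag too. Differentiation used 40 ng/ml activin A with 3 uM CHIR for 16 h and then 100 ng/ml activin A with 100 nM LDN for 24 h. The degrader dTAG13, which brings the tagged protein to the cell's ubiquitin machinery, or its vehicle DMSO was added at the primitive streak stage for 24 h, and 50000 sorted live cells went into each library. Each group had 3 libraries, described by the submitters as technical replicates, so the authors' p-values measure the spread between such libraries and not between independent differentiations. The deposited values were 1 row per peak over all 6 libraries and 1 pooled peak list per group, so values per library and their depth are not given here. Of the definitive endoderm markers examined, 10 of 10 had a promoter peak, but so had 5 of 6 of the epiblast, 4 of 6 of the mesoderm, 3 of 3 of the neural lineage and 1 of 3 of fibroblasts or blood, so a promoter peak alone did not set the endoderm apart. Those with none were Nanog, Mesp1, Meox1, Ptprc and Hbb-bt.

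Ribosomal proteins are made in near-equal amounts and assembled with ribosomal RNA into the small and the large subunit, which decode messenger RNA and join amino acids. Their genes are expressed in nearly every cell, and their promoters are known for short initiator regions with a run of pyrimidines at the transcription start, from which the messenger RNA inherits the tract through which mTOR and LARP1 control its translation. ETS-family factors such as GABPA, and YY1, are among the factors known to bind such promoters, and OTX2 is known to prefer the letters GGATTA.

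The promoters with the strongest peaks in each subunit are shown first, since they carry the signal described below, read from RefSeq on build GRCm38.p6 from 100 bases before to 25 bases after the annotated start. Capitals mark the ETS letters CCGGAAG on the strand shown and, near the start, a C followed by at least 4 further pyrimidines. They lie at chr7:45128721-45128845 on the minus strand (Rpl13a), chr14:18270962-18271086 on the minus strand (Rpl15), chr15:5116513-5116637 on the plus strand (Rpl37), chr7:24884492-24884616 on the plus strand (Rps19) and chr2:180257279-180257403 on the plus strand (Rps21).
Rpl13a: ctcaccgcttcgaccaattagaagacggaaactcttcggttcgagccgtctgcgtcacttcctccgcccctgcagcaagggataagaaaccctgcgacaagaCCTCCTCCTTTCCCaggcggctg
Rpl15: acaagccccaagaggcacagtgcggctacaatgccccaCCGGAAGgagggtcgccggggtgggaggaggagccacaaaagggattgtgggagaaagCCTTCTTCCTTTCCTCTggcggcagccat
Rpl37: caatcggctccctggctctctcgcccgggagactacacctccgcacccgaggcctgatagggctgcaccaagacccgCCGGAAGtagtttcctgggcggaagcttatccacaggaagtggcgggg
Rps19: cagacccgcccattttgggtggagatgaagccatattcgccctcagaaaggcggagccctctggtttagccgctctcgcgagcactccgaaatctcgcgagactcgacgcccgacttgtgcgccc
Rps21: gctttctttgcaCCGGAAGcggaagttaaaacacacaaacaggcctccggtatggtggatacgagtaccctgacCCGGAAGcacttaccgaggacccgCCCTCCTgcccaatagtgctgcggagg
The run at Rpl13a was 14 bases long and that at Rpl15 17 bases, while Rps21 had 7. Rps21 held the ETS letters at 2 places, Rpl15 and Rpl37 at 1 each on the strand shown, and Rpl13a and Rps19 at none in these bases.

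Of the 78 genes with a promoter peak, 57 matched a RefSeq promoter window, which spans 250 bases before to 50 after the start. The ETS letters, searched on both strands, occurred in 40.4% of these windows (23 of 57, 95% Wilson interval 28.6 to 53.3), against 16.2% of the windows of all genes with a promoter peak and 8.86% of all windows. A pyrimidine run beginning within 5 bases of the start was present in 42.1% (24 of 57, interval 30.2 to 55.0), against 19.7% and 18.3%. When the run was allowed to begin up to 45 bases after the start, the share was 87.7% (50 of 57), against 52.4% and 54.6%, and the longest run in each window had a median length of 10 bases, from 5 to 20. Over the whole window, the remaining sequences were closer to the other promoters. GGGCGG, the SP/KLF letters, stood in 63.2% against 66.1% of genes with a promoter peak, CCAAT in 35.1% against 38.2%, the E-box CACGTG in 8.77% against 9.98%, TATAAA in 8.77% against 6.47%, and GCATGCGC, bound by NRF1, in 3.51% against 5.21%. AAGATGGC, the YY1 letters, occurred in 7.02% against 4.32%, and the cyclic AMP response letters TGACGTCA in 7.02% against 3.29%. GGATTA was found in 2 of the 57 windows, those of Rpl9 and Rps9, or 3.51%, against 5.39% of genes with a promoter peak and 7.06% of all windows. These shares describe letters, and the intervals cover counting error over genes only.

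**Figure D1:**
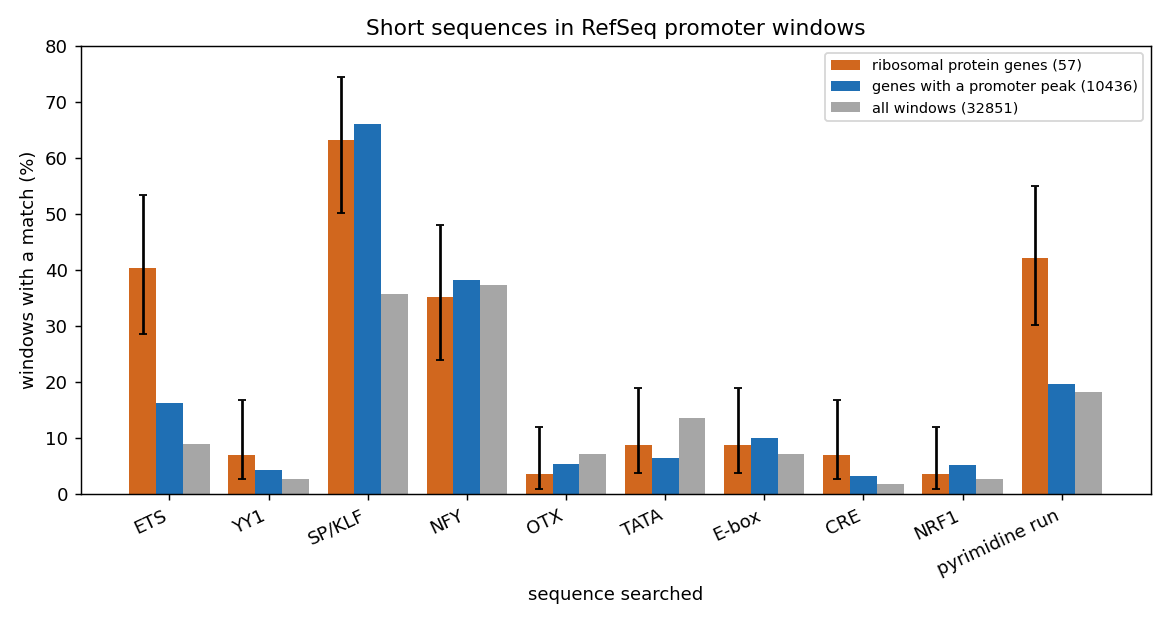
Share of RefSeq promoter windows that hold each short sequence (vertical axis, percent) for 57 ribosomal protein genes, 10436 genes with a promoter peak and all 32851 windows, with 95% Wilson intervals on the first. The ETS letters reach 40.4% and the pyrimidine run 42.1% in the ribosomal protein genes, while the OTX letters stand at 3.51%.

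Peaks of these genes were mostly promoter peaks. By the authors' annotation, 94 of 165 (57.0%) lay within 1 kb of a start, against 30.7% of all peaks, and 9 (5.45%) lay in introns, against 26.1%. A further 49 (29.7%) were intergenic, close to the 31.2% of all peaks. In similar lists, promoter peaks were 82 of 130 peaks for genes of the mitochondrial ribosome, 50 of 81 for listed translation factors and 59 of 88 for genes of ribosome assembly. A promoter peak was present at 78 of the 83 ribosomal protein genes, and 15 of these had several. The midpoint of a promoter peak lay a median of 49 bases from the nearest annotated start of its own gene, against 85 bases over all promoter peaks. Of these peaks 78 of 94 (83.0%) covered that start, against 56.6%. The same 2 values were 34.5 bases and 84.1% for genes of the mitochondrial ribosome. They were 61 bases and 78.0% for translation factors, and 68 bases and 62.7% for genes of ribosome assembly. The ribosomal protein promoter peaks had a median length of 211.5 bases and a median GC content of 60.8%, against 185 bases and 64.6% over all promoter peaks. For 11 of the 94 (11.7%) a start of another protein-coding gene lay within 1 kb of the midpoint, against 14.1% of all promoter peaks.

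Every one of the 77 cytosolic genes on the list had open chromatin near an annotated start, whatever gene the peak was named for. A peak midpoint lay within 1000 bases of a GENCODE start for 77 of 77 (100.0%, 95% Wilson interval 95.2 to 100.0), against 13899 of 21911 protein-coding genes (63.4%) and 75 of 78 genes of the mitochondrial ribosome (96.2%). In the pooled DMSO list alone the count was 77 of 77, and in the pooled dTAG13 list 75 of 77, Rpl35a and Rps4x having no peak there. For 5 of the 77 the authors' table named a neighbouring gene instead of the ribosomal protein gene: Lrsam1 for Rpl12, Sphk2 for Rpl18, Med22 for Rpl7a, Ndufa7 for Rps28 and Rab13 for Rps27. Rpl12, Rpl18, Rpl7a and Rps28 therefore had no peak by name, and the single peak named for Rps27 lay in an intron of Nup210l. The peaks at these 5 starts were closest by 18 to 84 bases, and log2 fold changes there, as the authors' deposited table gives them, ran from -0.24 at the Rpl18 start to 0.32 at the Rpl12 start, none with an adjusted p under 0.05. A further peak 901 bases from an Rpl18 start, named for Fam83e, had -1.12 (adjusted p 0.0612) in the authors' deposited table. The same assignment to a neighbour held for 2 genes outside that list, Fau, which encodes a ubiquitin-like fusion to a small-subunit protein, at -0.28 under Mrpl49, and the paralogue Rpl36al at 0.13 under Mgat2. No peak midpoint lay within 1000 bases of a start of the paralogues Rpl3l, Rpl10l, Rpl39l or Rps27rt.

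The strength of the promoter peaks differed widely among genes whose products are needed in similar amounts. Signal here is the authors' mean normalized read count per peak over the 6 libraries, which grows with peak length. Rps19, a small-subunit protein mutated in Diamond-Blackfan anaemia, had the highest mean at 106 in the authors' deposited table, and Rpl13a at 103, Rpl15 at 101, Rpl37 at 98.2, Rps21 at 82.4 and Rpl27 at 68.5 were also among the highest. At the other end of that table stood Rpl37rt at 4.23, Rps4l at 4.56, Rpl9 at 6.88, Rps4x at 7.40, Rpl4 at 7.51, Rpl37a at 7.70, Rpl32 at 7.86 and Rpl17 at 8.65. Rpl37rt and Rps4l are outside the list, and the other 6 of these weakest genes encode cytosolic ribosomal proteins. The median over 78 genes was 25.3, against 21.8 over the strongest promoter peak of each of 14926 genes, and the median rank was the 56.1 percentile among them, with 7 genes above the 90th percentile and 29 below the 50th. Per 100 bases of peak, Rpl15 led at 26.1, on a peak that lay nearer to a start of Nkiras1. Rpl37 had 22.4, while Rps19, whose peak of 725 bases was the longest, stood at 14.6. The medians of the subunits were close, 24.8 for 43 large-subunit genes and 26.2 for 29 small-subunit genes.

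**Figure D2:**
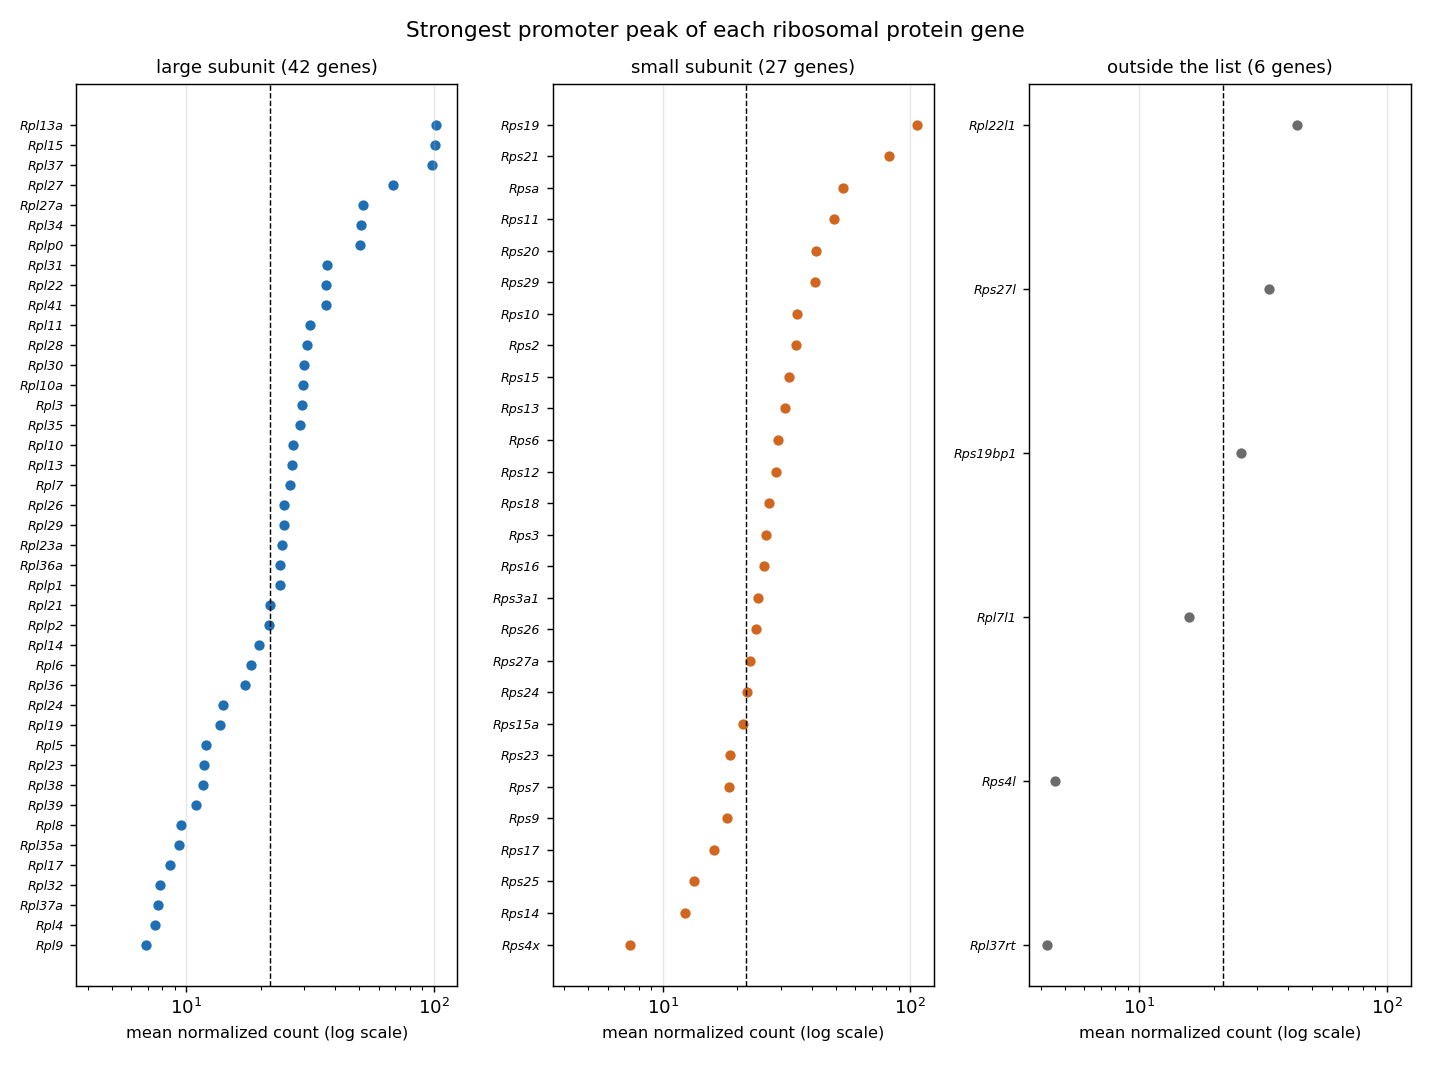
Mean normalized count of the strongest promoter peak (horizontal axis, log scale) for 75 of the 78 genes, in panels for the large subunit, the small subunit and genes outside the list, with the median of 14926 genes as a dashed line. Values span 4.23 for Rpl37rt to 106 for Rps19.

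Across the whole table, 5.26% of peaks with an adjusted p had one under 0.05, 3.79% lower and 1.47% higher in dTAG13. Of the 165 ribosomal protein peaks 9 passed, 7 lower and 2 higher, which is 5.45% of the members and near that background. With fold changes centred within deciles of peak GC content 5 passed, 3 lower and 2 higher, against 1434 lower and 2009 higher over all peaks. In these bulk libraries a lower count in every cell and an open site in fewer cells cannot be told apart. Of 94 promoter peaks 0 were called lower and 2 higher, where 1.0% and 1.15% of all promoter peaks were called. Of 71 peaks outside promoters 7 were called lower and 0 higher, where 5.06% and 1.62% of all such peaks were called. At an unadjusted p under 0.05 in the authors' deposited table, 4 promoter peaks were lower (4.26%) and 6 higher (6.38%), against 5.02% and 7.52% of all promoter peaks. Outside promoters 12 were lower (16.9%) and 2 higher (2.82%), against 16.1% and 6.78% of all such peaks. Whether members differ from other peaks by position was not tested. All 9 called peaks were named for small-subunit genes, 7 peaks, or for the paralogue Rps4l, 2 peaks, and none of the 82 peaks of large-subunit genes was called, although 4 were lower and 4 higher (4.88% each) at an unadjusted p under 0.05, against 12.7% and 7.0% of all peaks. Whether the subunits differ was not tested.

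**Figure D3:**
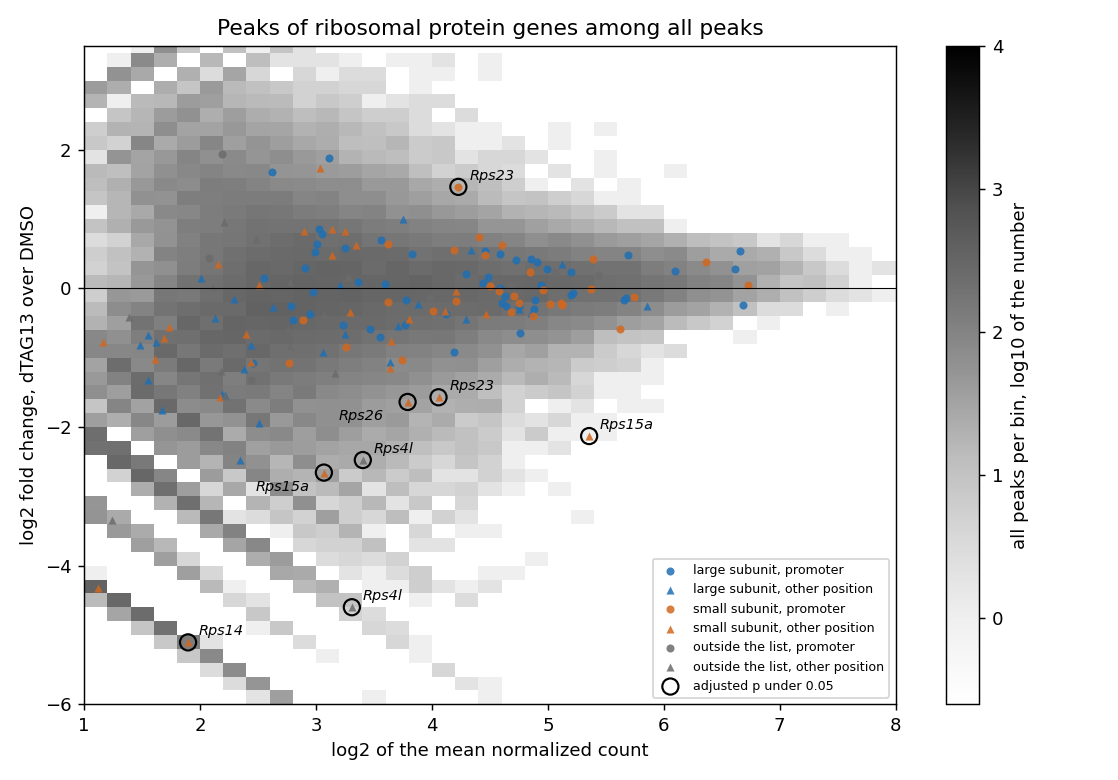
Log2 fold change of dTAG13 over DMSO (vertical axis) against log2 of the mean normalized count (horizontal axis), with all peaks as grey bins and 161 ribosomal protein peaks as circles at promoters and triangles elsewhere, within the ranges drawn. The 8 ringed peaks have an adjusted p under 0.05, and the 1 above 0 is a promoter peak.

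At promoters the log2 fold changes of ribosomal protein genes were centred near 0, as over all genes. The log2 fold change of the strongest promoter peak had a median of -0.02 over 78 genes, with quartiles of -0.23 and 0.39, against 0.06 over 14926 genes, with quartiles of -0.28 and 0.36. It was above 0 at 38 genes and below 0 at 40, and lay within 0.5 of 0 at 59 of 78. The median was 0.01 for the large subunit and -0.11 for the small. In both pooled lists together, 72 of 78 strongest promoter peaks were found (92.3%, 95% Wilson interval 84.2 to 96.4), against 82.1% of the strongest promoter peaks of all genes. The share was similar for genes of the mitochondrial ribosome (93.9%), translation factors (94.6%) and genes of ribosome assembly (92.7%). The 6 exceptions among ribosomal protein genes were weak peaks. Rpl9, Rpl35a, Rpl38 and Rps4x were found in the DMSO list alone, and Rpl4 and Rps4l in the dTAG13 list alone. None of these 6 had an adjusted p under 0.05, so their absence from 1 list did not come with a called difference in counts. Over all peaks the median log2 fold change was -0.18. Setting it to 0 raised the promoter median to 0.16, and setting the median of peaks in both lists to 0 lowered it to -0.11, so the sign of this median depends on the centring.

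**Figure D4:**
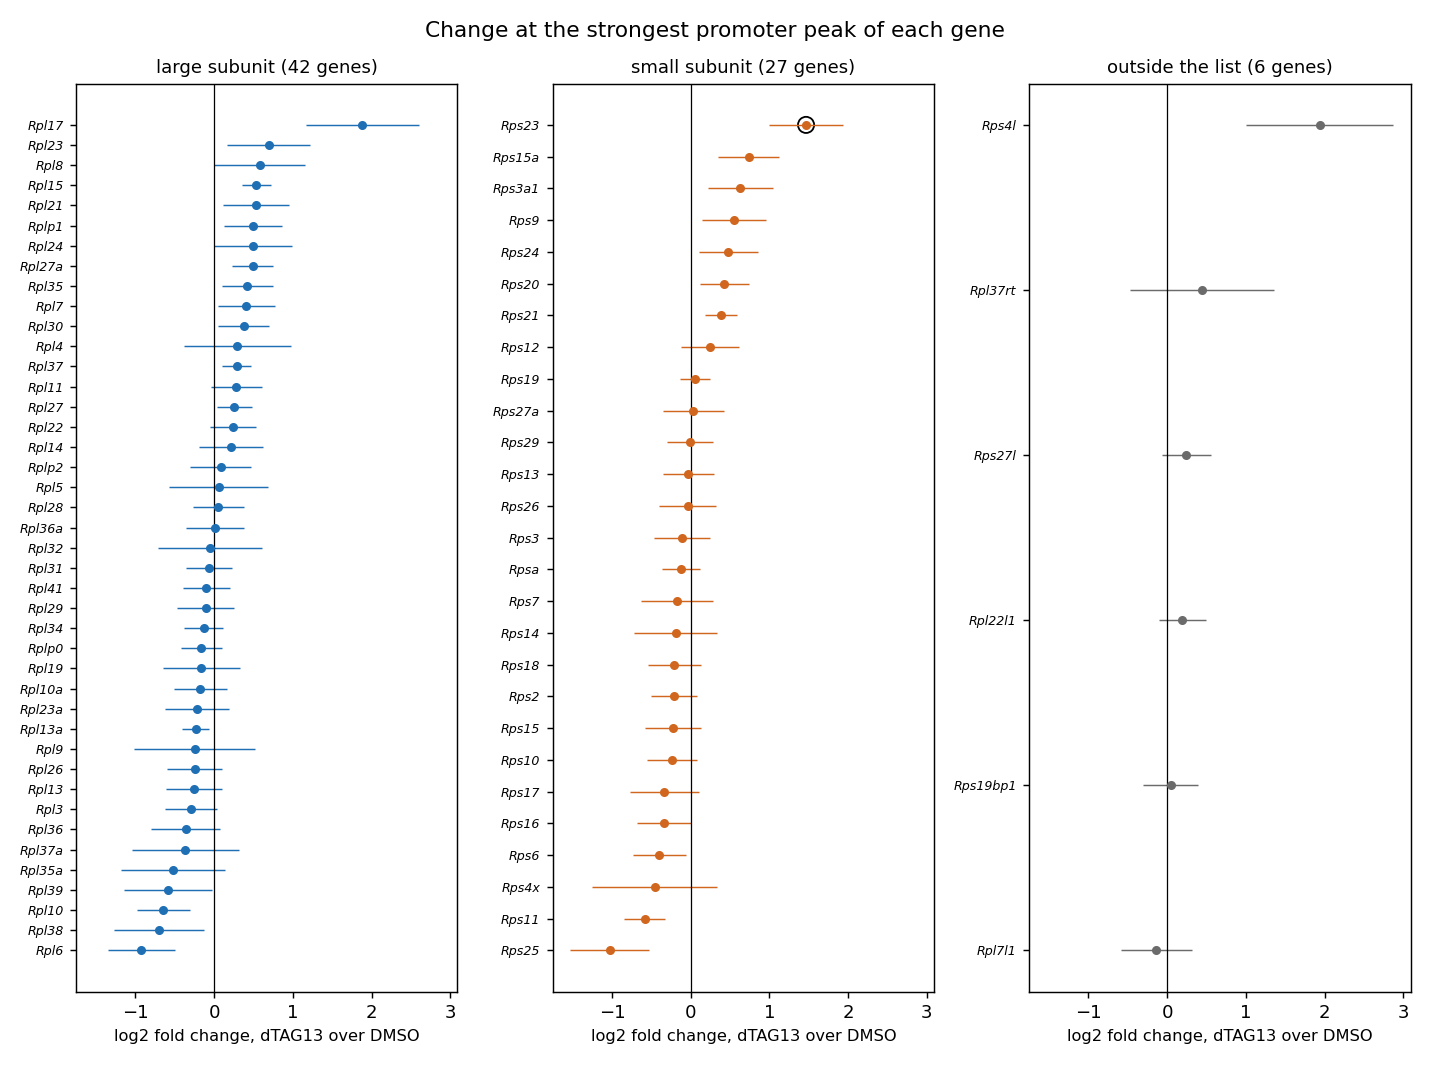
Log2 fold change of dTAG13 over DMSO with its standard error (horizontal axis) at the strongest promoter peak of 75 of the 78 genes, by subunit. Rps23, ringed, has an adjusted p under 0.05, and the other genes drawn run from -1.03 at Rps25 to 1.94 at Rps4l without passing.

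One of the called promoter peaks belonged to Rps23, a small-subunit protein of the decoding centre. Group means are implied by the mean and fold change of the authors' deposited table. For Rps23 the implied means of the peak at chr13:90922767-90922947 were 9.96 and 27.5, 2.76-fold higher in dTAG13. Its log2 fold change in the authors' deposited table was 1.47 (standard error 0.47, adjusted p 0.0377), and with the median of peaks in both lists set to 0 the adjusted p was 0.0527. A neighbouring Rps23 promoter peak, at chr13:90923108-90923222, had 12.3 and 6.85 by the same calculation, a log2 fold change of -0.85 (adjusted p 0.520 in the authors' deposited table). The 2 Rps23 peaks thus had opposite signs within a span of 456 bases, and the upstream one passed the test.

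The 140 bases of the called Rps23 peak nearest to the GENCODE start, all ahead of it, are shown in mm10, on the plus strand (chr13:90922808-90922947), with the SP/KLF letters, here as their reverse complement CCGCCC, in capitals. The RefSeq window of Rps23 begins further downstream and is given last (chr13:90923022-90923146, plus strand, GRCm38.p6), with its pyrimidine run in capitals.
Rps23 peak: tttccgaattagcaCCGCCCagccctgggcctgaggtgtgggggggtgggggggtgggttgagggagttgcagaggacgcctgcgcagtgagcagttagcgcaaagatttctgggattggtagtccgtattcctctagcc
Rps23 promoter: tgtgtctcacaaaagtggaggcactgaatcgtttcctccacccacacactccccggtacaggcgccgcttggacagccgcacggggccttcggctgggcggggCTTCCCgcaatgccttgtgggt
The called Rps23 promoter peak did not hold GGATTA, and among all 94 promoter peaks 2 (2.13%) had it within 100 bases of the midpoint, against 3.99% of all promoter peaks.

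Other promoters with large estimates did not pass the test. Rps4l had a log2 fold change of 1.94 (standard error 0.93, adjusted p 0.220) and Rpl17, a protein at the mouth of the exit tunnel, 1.89 (standard error 0.72, adjusted p 0.0974) in the authors' deposited table, both on weak peaks. The implied means of the Rpl17 peak were 3.69 in DMSO and 13.6 in dTAG13. Rps15a had 0.74 (adjusted p 0.269 in the authors' deposited table). Rpl15 had a smaller estimate, 0.54 (standard error 0.19, adjusted p 0.0609 in the authors' deposited table), on a strong peak with implied means of 82.5 and 119.8. The midpoint of this peak lay 15 bases from a start of Nkiras1 and 84 bases from that of Rpl15, so its signal cannot be assigned to Rpl15 alone. With the median of all peaks set to 0 this peak was called. Low values in the authors' deposited table were -1.03 at Rps25 (adjusted p 0.233), -0.92 at Rpl6 (0.203), -0.70 at Rpl38 (0.528) and -0.64 at Rpl10 (0.275). This Rpl10 peak lay 542 bases from a start and did not cover it, and the weaker Rpl10 peak that covered a start had 0.17. Among the 15 genes with several promoter peaks, 8 had peaks of opposite sign and 7 of the same sign. At Rpl34, for instance, the stronger peak had a mean of 51.1 and a log2 fold change of -0.13, and the weaker a mean of 6.16 and 1.68 in the authors' deposited table.

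The peaks outside promoters were weaker and leaned lower in dTAG13. Their median log2 fold change was -0.59 over 71 peaks at 28 genes, with 53 of 71 below 0. Over all peaks outside promoters the median was -0.38, with 30778 of 48855 below 0, so all such peaks leaned lower too. The 49 intergenic peaks had a median of -0.72, against -0.38 for all intergenic peaks. Of all 71 peaks outside promoters 50 had a mean count under 10, against 21 of 94 promoter peaks, and 45.1% of the 71 were found in both lists, against 38.1% of all peaks outside promoters. Another 50.7% were in the DMSO list alone, against 48.5%, and 4.23% in the dTAG13 list alone, against 13.4%. These peaks are named for a ribosomal protein gene by distance alone. For 27 of the 165 members, 18 of them intergenic, the nearest annotated start was that of another gene, and all 9 intronic members lay in introns of other genes.

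The ribosomal protein peak with the smallest adjusted p lay far from its gene. At chr7:118026086-118026626, 88872 bases from the start of Rps15a, the implied means were 66.7 in DMSO and 15.2 in dTAG13, a 4.38-fold lower value on a peak in both lists. Its log2 fold change was -2.13 (standard error 0.32, adjusted p 1.41e-07) in the authors' deposited table, and it stayed under 0.05 with each of the 4 other centrings. A second peak nearer Rps15a, at chr7:118055009-118055262 and 60093 bases from the start, fell from 14.5 to 2.30, at least 4.82-fold when the lower value is set at a floor of 3 normalized counts per library. Its log2 fold change was -2.66 (standard error 0.80, adjusted p 0.0256) in the authors' deposited table, and its adjusted p was 0.0712 when fold changes were centred within deciles of GC content. The intergenic peak between them, at 72080 bases, had 6.25 and 11.4 and was not called. The Rps15a promoter had 15.9 and 26.5, also not called, so the peaks named for this gene did not move as one.

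The 2 lower peaks named for Rps4l, a paralogue of the small-subunit gene Rps4x, both lay in introns of Tmtc1. The first, at chr6:148316912-148317135 and 37633 bases from the Rps4l start, had implied means of 19.0 in DMSO and 0.785 in dTAG13, at least 6.35-fold lower against the floor. Its log2 fold change in the authors' deposited table was -4.60 (standard error 1.12, adjusted p 0.00429). The second, at chr6:148328817-148329084 and 25706 bases away, had 17.9 and 3.22, 5.56-fold lower, with a log2 fold change of -2.48 (standard error 0.74, adjusted p 0.0260) in the authors' deposited table. Its adjusted p was 0.163 with centring within deciles of GC content. Both were in the DMSO list alone, whereas the weak peak at the Rps4l start was in the dTAG13 list alone, with 1.89 and 7.23.

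The letters GGATTA, searched over the whole peak, occurred in 2 of the 7 lower called peaks, the strongest of Rps15a and the first of Rps4l. The 80 bases around them are shown in mm10 with the letters in capitals, on the minus strand for Rps15a (chr7:118026513-118026592) and on the plus strand for Rps4l (chr6:148316943-148317022).
Rps15a: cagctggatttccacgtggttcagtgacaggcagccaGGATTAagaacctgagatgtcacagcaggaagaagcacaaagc
Rps4l: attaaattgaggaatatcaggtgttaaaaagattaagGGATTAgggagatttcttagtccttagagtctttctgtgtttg
The match lay 197 bases from the midpoint of the Rps15a peak and 40 bases from that of the Rps4l peak. Within 100 bases of the midpoint, 7 of 71 members outside promoters (9.86%) held GGATTA, against 11% of all such peaks. By that narrower measure the Rps4l peak counted and the Rps15a peak did not. The share of all peaks with the letters anywhere in the peak is not given here, so the 2 of 7 has no like background.

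The 3 remaining lower peaks were named for Rps14, Rps23 and Rps26. An intergenic peak named for Rps14, at chr18:60746081-60746163, had 7.23 in DMSO and 0.210 in dTAG13, at least 2.41-fold lower against the floor, and a log2 fold change of -5.11 (standard error 1.43, adjusted p 0.0152) in the authors' deposited table. It lay 976 bases from a GENCODE start of Rps14, and a stronger peak 86 bases from that start had 18.6 and 18.2. A peak in an Atg10 intron named for Rps23, at chr13:91024868-91025195, had 24.9 and 8.38, 2.97-fold lower, with a log2 fold change of -1.57 (standard error 0.50, adjusted p 0.0381) in the authors' deposited table. Its nearest annotated start was that of Atg10. A peak placed by the authors in a 3′ untranslated region, at chr10:128631697-128631883, lay 5043 bases upstream of the start of Rps26, for which it was named. It had 20.9 and 6.73, 3.11-fold lower, with a log2 fold change of -1.64 (standard error 0.53, adjusted p 0.0405) in the authors' deposited table. With the median of all peaks set to 0 the adjusted p of these last 2 was 0.0694 and 0.0706, and within deciles of GC content 0.382 and 0.0682. The promoter peak of Rps26 had 24.2 and 23.6.

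Some large estimates outside promoters were not called. A peak in an Atg10 intron named for Rps23 had a log2 fold change of -4.33 (adjusted p 0.0984) on a mean of 2.17 in the authors' deposited table, and a peak named for Rpl6l had -3.35 (adjusted p 0.209) on a mean of 2.36. At the other end stood the intronic peak named for Rps27 at 1.74 (adjusted p 0.115 in the authors' deposited table), an intergenic Rpl29 peak at 0.999, one of Rpl6l at 0.97, one of Rps15a at 0.86 and one of Rps14 at 0.83. That Rps14 peak lay 71 bases from a start of Ndst1 and 1050 bases from a start of Rps14.

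Genes with many peaks were few. One peak was named for 49 genes, 2 for 14 genes and at least 3 for 20 genes. Rplp1, which encodes an acidic protein of the stalk that recruits elongation factors, had 13, of which 12 were intergenic and reached 215438 bases from its start. The strongest of them, 105734 bases away, had 63.0 in DMSO and 53.1 in dTAG13 and exceeded the Rplp1 promoter, which had 19.9 and 28.1. None of the 13 was called, and 9 of the 12 intergenic log2 fold changes were below 0, against 13876 of 22014 over all intergenic peaks. Rps14 had 8 peaks, Rps15a 7, Rps23, Rps24 and Rpl29 5 each, and Rpl11, Rpl37a and Rpl7l1 4 each. The remaining 11 genes with 3 were Rpl7, Rpl10l, Rpl21, Rpl24, Rpl32, Rpl36, Rpl6l, Rps4l, Rps10, Rps19bp1 and Rps26. Rpl11, a protein that also binds MDM2, had its promoter peak, at chr4:136053338-136053557, at 28.7 and 34.9. A further 2 strong peaks named for it, at chr4:136031063-136031302 and chr4:136031617-136031926, had 32.6 and 25.4, and 29.6 and 24.2. These lay 2384 and 2973 bases from another annotated start of Rpl11 and not near that promoter peak. None of these Rpl11 peaks was called.

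**Figure D5:**
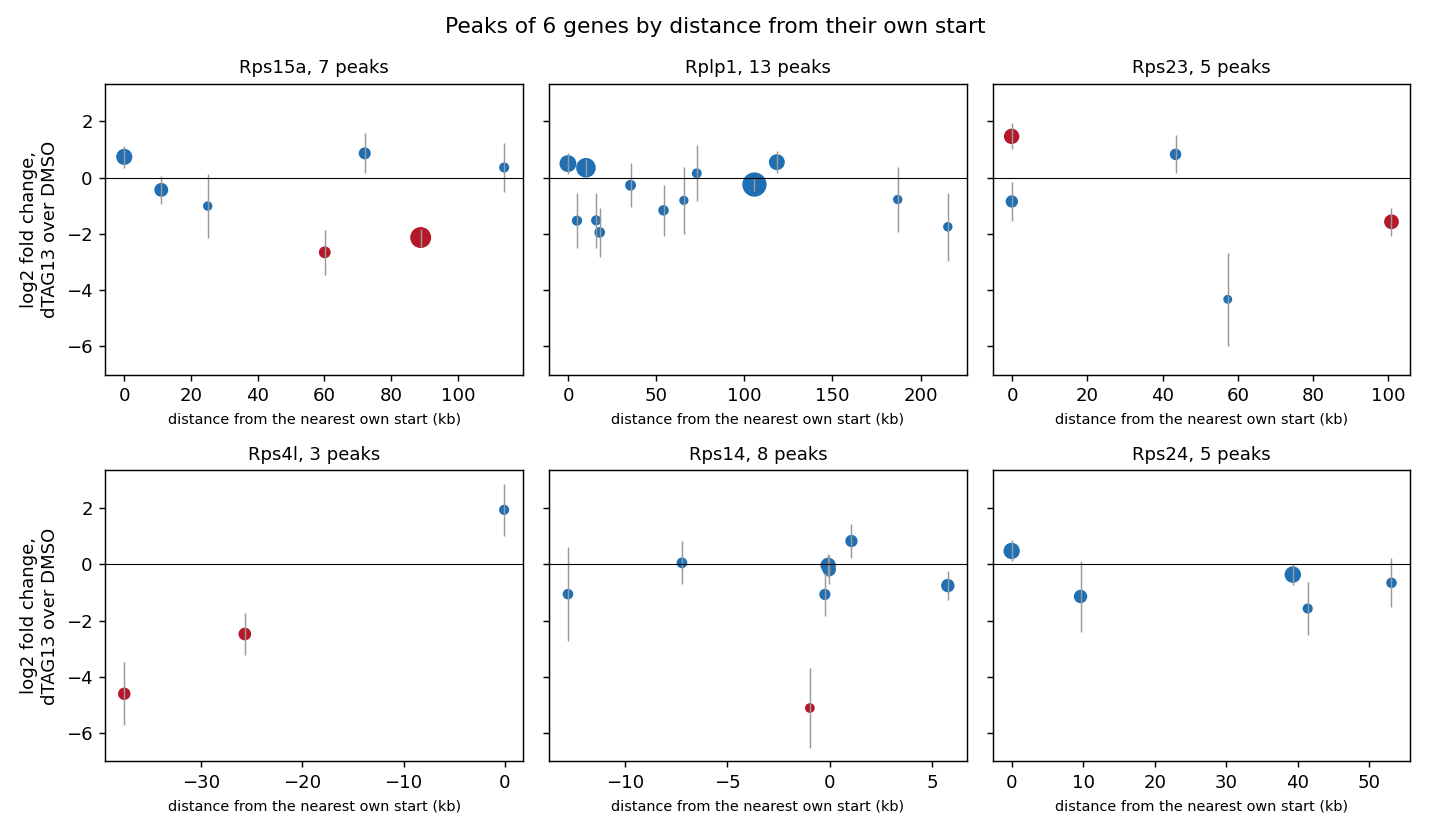
Log2 fold change of dTAG13 over DMSO with its standard error (vertical axis) against the distance of each peak from the nearest annotated start of its own gene (horizontal axis, kb, scaled per panel) for 6 genes, with point area growing with the mean count and red for an adjusted p under 0.05. The red points of Rps15a lie 60093 and 88872 bases from the start, while the peak at the start is above 0.

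Other genes of translation were described with the same table. Genes of the mitochondrial ribosome had 4 of 130 peaks lower and 2 higher, where 3.79% and 1.47% of all peaks were called. The median log2 fold change of their strongest promoter peaks was 0.17 over 66 genes. The lower peaks, all outside promoters, were named for Mrps18a (-1.52), Mrps27 (-3.46), Mrpl32 (-3.11) and Mrpl19 (-4.92), and the higher for Mrps24 (2.26, an intron) and Mrpl17 (0.54, a promoter) in the authors' deposited table. The implied dTAG13 means at Mrps27 (1.58), Mrpl32 (1.59) and Mrpl19 (0.208) were under the floor of 3 normalized counts. The size of these fold changes is therefore uncertain. None of the 81 peaks of the listed translation factors was called. That list held initiation and elongation factors and also Tpt1, Pabpc1, Naca and Btf3. At an unadjusted p under 0.05, 3 of its peaks were lower (3.7%) and 9 higher (11.1%), against 12.7% and 7.0% of all peaks. None of the 8 peaks of snoRNA host genes was called, although 2 were higher at that unadjusted level. Genes of ribosome assembly had 1 of 88 peaks lower and 2 higher in the authors' deposited table. The lower was named for Ubtf, the RNA polymerase I factor (-4.29, annotated as downstream). The higher were at Polr1a (3.38, 1-3 kb from a start) and the promoter of Rrs1 (0.65). The implied means of 0.783 in dTAG13 at Ubtf and 1.57 in DMSO at Polr1a were also under the floor. Among regulators of growth and of ribosomal protein transcription, 5 of 76 peaks were called in the authors' deposited table, among them lower at Myc (-2.93) and higher at Yy1 (1.02), Gabpa (2.46) and Eif4ebp1 (2.73), none of the 5 a promoter peak within 1 kb. The implied DMSO means at Gabpa (2.12) and Eif4ebp1 (1.60) were under the floor too. No ribosomal protein peak carried the authors' mark for a gene with changed expression, while 2.86% of all peaks carried the mark for lower and 3.01% that for higher expression.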

How the data were processed

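Open chromatin was measured by ATAC-seq in 6 libraries, 3 per group. Per the submitters' processing notes, fastp, Bowtie2, MACS2, featureCounts, ChIPseeker and HOMER 4.11 were used with build mm10. No step is recorded for the shift of reads at the transposase cut or for removal of duplicates. The deposited table gives, per peak, the authors' mean normalized count over libraries (a signal), the log2 fold change with its standard error, the test score, and the p-value and adjusted p-value. The tool behind the test is not given in the sources used here. The authors pooled the libraries of a group for each deposited peak list, whose scores were not used.

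Members were taken by gene name, and the members, gene lists and tests were chosen with earlier results of these data known. The call was the authors' adjusted p under 0.05, which 69128 peaks had. Group means were implied from the mean and the fold change, with a floor of 3 normalized counts per library, and are approximate. Overlap with a pooled list needed 1 base. Distances used GENCODE starts, and sequences RefSeq windows on GRCm38.p6 or mm10. Depth per library is unknown, so no interval was given for a signal, and Wilson intervals cover counting error only. Named were the called peaks, the 8 strongest and 8 weakest promoters, the 5 extremes in each direction, genes with at least 3 peaks, with none, or with a promoter peak in 1 list, and at most 5 called genes per other list, to which a 6th mitochondrial gene was added. A few genes this rule names are not reported here, in text or figures, and stay in the counts. Rpl34, the Rpl11 peaks and weaker promoter peaks were added after their values were seen. Recomputation from fold change and standard error, tested on simulated data, was done in Python 3.11.15 with scipy 1.17.1 and, for tables and sequences, pandas 2.3.3 and pysam 0.24.0.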

Additional observations from a re-analysis of the deposited data

How the results depend on the processing

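No paired analysis was possible because the deposited files give no values per library, and for the same reason leaving out replicates was not run. Adjusted p-values were recomputed from the deposited fold changes and standard errors. Of 7 lower and 2 higher ribosomal protein peaks, 1 was higher with the median of peaks in both lists set to 0, and 5 in all and 3 lower were called with centring within deciles of GC content. With the median of all peaks set to 0, 5 were lower and 3 higher, 7 of the 9 being kept. At an adjusted p under 0.1, 8 of the 165 were lower and 4 higher, against 4342 lower and 1949 higher of 69128 peaks. Under 0.01, 3 were called, 2 lower and 1 higher, against 923 lower and 284 higher over all peaks. Leaving out peaks whose lower group was under 3 normalized counts, an alternative chosen after seeing the data, left 4 lower, and leaving out Rps4l, also chosen then, left 5. Taking genes by nearest start gave 6 lower and 2 higher. The cause of these changes was not tested. Over all peaks the split of 2622 lower and 1016 higher was 2056 and 1958 with the median of all peaks set to 0, 3159 and 790 with that of peaks in both lists, 1934 and 1534 within deciles of mean signal, and 1434 and 2009 within deciles of GC content. The median promoter signal of 25.3 was 11.1 per 100 bases. The share of ribosomal protein peaks in both lists was 67.3% over all positions, against 48.2% of all peaks. For promoter peaks it was 84.0%, against 71.0% of all promoter peaks. When the overlap had to reach 50% of both peaks, the share over all positions was 60.6%, and the like share of all peaks is not given here. In the 100 bases before the start alone, which hold fewer bases, the ETS letters stood in 19.3% of windows, against 8.55% of genes with a promoter peak. SP/KLF stood in 33.3% against 49.0%, CCAAT in 19.3% against 23.1%, TATAAA in 3.51% against 2.36% and TGACGTCA in 5.26% against 2.16%. The YY1, OTX, E-box and NRF1 letters stood in 0.0%, against 0.69%, 1.49%, 4.44% and 2.81%. For these, 0 of 57 allows up to 6.31%. The pyrimidine run, allowed further downstream after seeing the data, stood at 87.7%. No direction reversed under these alternatives for the 9 called peaks. Mean counts under 10 limit what can be seen at most peaks outside promoters.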
